A study of Mus musculus with 9 samples.

Results

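The expression of 10 genes of shelterin, CST and the telomerase holoenzyme was followed in naïve and primed mouse pluripotent cells, namely *Terf1*, *Terf2*, *Terf2ip*, *Tinf2*, *Acd*, *Pot1a*, *Pot1b*, *Ctc1*, *Dkc1* and *Nop10*. They were chosen by name, with earlier results of these data known. Each of the 10 symbols matched 1 of the 54232 genes in the count file. Naïve mESCs came from the OG2 line of C57 × CBA background, which carries GFP under the distal *Oct4* promoter, and grew in serum and LIF (S/L medium) on mitomycin C-inactivated MEF feeders. Primed mEpiSCs were made from these mESCs by culture with Fgf2 and Activin A (F/A medium), also on feeders. Poly(A) RNA was sequenced in 2 libraries of each state at passage 5 (P5) and passage 15 (P15), the early and late passages, and in 1 library of MEFs. All 9 libraries stand for 1 genetic background, and the reporter is shared by the naïve and primed cells. The labels do not say whether the 2 libraries of a group came from separate cultures, although the study calls such libraries biological repeats, and p-values measure the spread between these libraries.

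Telomeres are repeats at chromosome ends that shelterin shields from the DNA damage response. TRF1 (*Terf1*) and TRF2 (*Terf2*) bind the double-stranded repeats, RAP1 (*Terf2ip*) binds TRF2, TIN2 (*Tinf2*) and TPP1 (*Acd*) link the complex, and POT1a and POT1b, which mice have in place of a single POT1, bind the single-stranded end. CST, of which CTC1 is the large subunit, brings polymerase alpha-primase to fill in the complementary strand, and telomerase, a reverse transcriptase with its own RNA, extends the end. Dyskerin (*Dkc1*) and NOP10, with NHP2 and GAR1, form the H/ACA particle that stabilizes the telomerase RNA and also guides modification of ribosomal RNA, and mouse pluripotent cells are known to keep telomerase active.

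Each naïve or primed library had between 14378051 and 20985136 counts, and the MEF library had 25646547. Levels are in CPM, the counts of a gene scaled to a common library size by TMM over all 9 libraries, which cannot tell fewer cells of a type from less RNA per cell. The labelled states were checked by marker genes. The summed level of 6 naïve markers was 1542 to 1735 CPM in naïve and 54.5 to 184.8 CPM in primed libraries, and that of 6 primed markers was 49.6 to 74.4 CPM and 704.6 to 777.4 CPM. Of the naïve markers, *Nr0b1* was at 0 in 1 primed P15 library, and of the primed markers, *Cer1* was at 0 in 3 of 4 naïve libraries. A list of 4 genes of both pluripotent states summed to 1656 to 1773 CPM in naïve libraries, against 1.45 CPM in MEFs. In primed libraries this sum was 645.8 and 647.2 CPM at P5 and 1037 and 994.3 CPM at P15. The sum of the naïve markers also differed by passage there, at 184.8 and 180.4 CPM at P5 and 61.97 and 54.53 CPM at P15. Markers of other cells were measured as well. A list of 12 fibroblast markers, none at 0, summed to 5258 to 5310 CPM at P5 and 10210 to 10730 CPM at P15 in naïve cells, and to 3228 to 3290 CPM and 9389 to 9742 CPM in primed cells, with 60170 CPM in MEFs. Relative to their MEF levels, the median of the 12 was 10.05% to 17.0% in naïve and 15.05% to 32.5% in primed libraries, and the lowest was 3.56% to 11.7%. The highest was 46.3% to 52.2% in naïve but 267.1% to 391.4% in primed libraries, where *Dcn* was at 457.2 to 748.6 CPM against 211.5 CPM in MEFs, so that the 12 did not give 1 common share. The median and the lowest were each used, as alternatives, as the share of the MEF counts to take off a library, and the median may take off too much. A list of 5 endoderm markers summed to 7.22 to 12.7 CPM in naïve and 127.4 to 138.2 CPM in primed cells with *Afp* at 0 in 6 of 8 libraries, and 3 neural markers to 8.45 to 18.9 CPM and 12.1 to 14.7 CPM, with *Neurog2* at 0 in 4 of them.

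**Figure D1:**
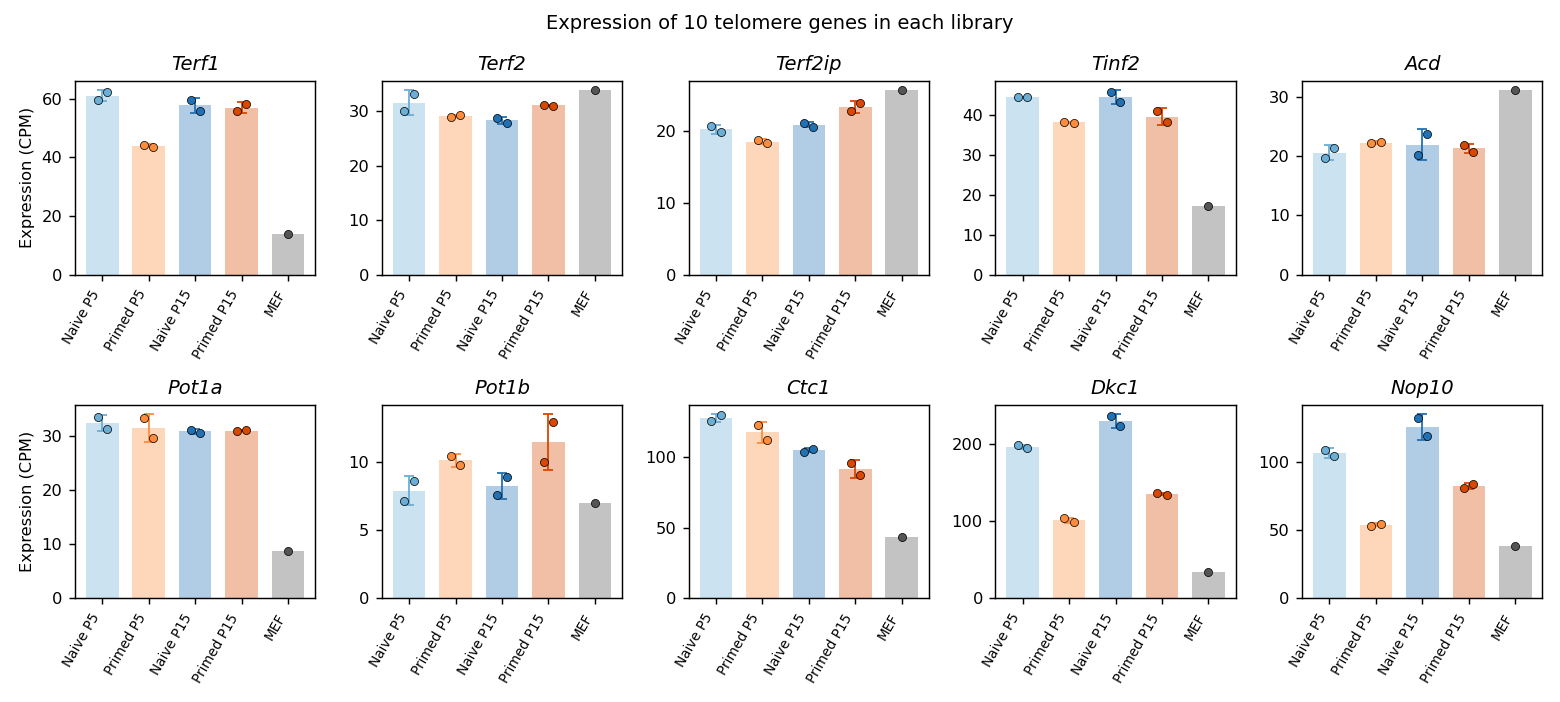
Expression in CPM (linear axis from 0, scaled separately for each gene) of the 10 genes. Points are libraries, bars are means, error bars are the SD of 2 libraries, and MEF is 1 library. *Dkc1* lay at 194.2 to 236.1 CPM in the 4 naïve libraries and at 98.6 to 136.2 CPM in the 4 primed ones, while *Pot1a* lay at 29.6 to 33.5 CPM in all 8.

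All 10 genes were expressed in both states, and their levels per length of annotated exon spanned a wide range. Per kilobase of exon, *Nop10* was highest, at 96.4 ± 3.09 CPM per kb (SD, n = 2) in naïve cells at P5, followed by *Dkc1* at 47.6 ± 0.687 CPM per kb. Next came *Ctc1* at 18.8 ± 0.439, *Terf1* at 13.3 ± 0.402, and *Tinf2* at 9.04 ± 0.00352 CPM per kb. *Terf2* at 6.87 ± 0.487, *Acd* at 5.66 ± 0.348, *Terf2ip* at 4.09 ± 0.128, *Pot1a* at 3.74 ± 0.171 and *Pot1b* at 1.501 ± 0.201 CPM per kb completed the order. The order of the means was the same in all 4 groups of naïve and primed cells. Neighbours in that order overlapped between their libraries in 2 places, *Terf2ip* and *Pot1a* in primed cells at P5 and *Terf2* and *Acd* in naïve cells at P15. The lengths are those of all annotated exons in GENCODE M21, which may differ from the annotation used for counting, and they enter no other comparison.

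**Figure D2:**
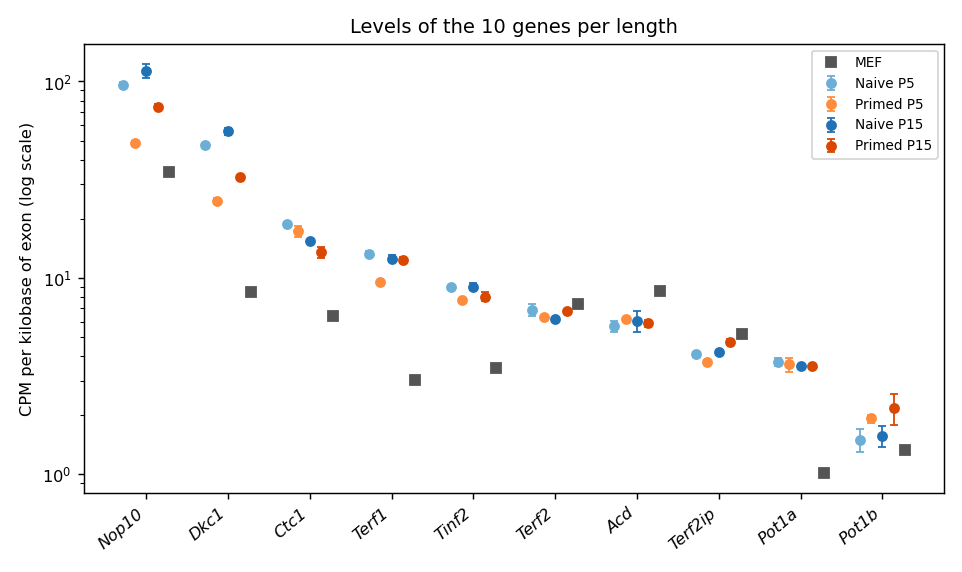
Level of each gene in CPM per kilobase of exon (log axis) in the 4 groups and in MEFs. Circles are means of 2 libraries with SD, and squares are the single MEF library. *Nop10* and *Dkc1* led in all 4 groups and *Pot1b* was last, at 1.501 to 2.18 CPM per kb, while in MEFs the lowest was *Pot1a* at 1.02 CPM per kb.

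The MEF level of each gene bears on the feeder RNA in these libraries. It lay below every naïve and primed library for 7 of the 10 genes, *Terf1*, *Tinf2*, *Pot1a*, *Pot1b*, *Ctc1*, *Dkc1* and *Nop10*. The group means of *Dkc1* were 2.90 to 6.58 times the MEF level, those of *Terf1* 3.155 to 4.38 times and those of *Pot1a* 3.49 to 3.665 times. *Dkc1* was furthest above MEFs in naïve cells at each passage, *Pot1a* in primed cells at P5 and *Terf1* in primed cells at P15. *Terf2*, *Terf2ip* and *Acd* were instead highest in MEFs, their group means being 0.836 to 0.9325, 0.722 to 0.910 and 0.6605 to 0.717 times the MEF level. With DESeq2's size factors the first count was 6 of 10, and with 1 MEF library no difference from MEFs was tested. The same count was not made over all genes, so that 7 of 10 has no background here.

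Next, the primed state was set against the naïve state at P5 and at P15. At P5, *Dkc1* and *Nop10* were 1.90-fold and 1.93-fold lower in primed cells and *Terf1* was 1.36-fold lower. At P15, *Dkc1* and *Nop10* were again lower, by 1.71-fold and 1.53-fold, and *Ctc1* was 1.15-fold lower. Each gene was tested by the quasi-likelihood test of edgeR, p-values were adjusted by Benjamini-Hochberg over 16482 genes at P5 and 15733 at P15, and adjusted values under 0.01 were called. Of the 10 genes, 3 were called lower and 0 higher in primed cells at P5, where 31.1% of all genes tested were called lower and 31.2% higher. At P15 they were 3 lower and 0 higher, against 28.4% and 28.2% of all genes. At an unadjusted p under 0.05, 1 gene (*Pot1b*) was higher and 4 were lower at each passage, and DESeq2's Wald test called 0 higher at either. None of the 10 passed a fold of 2 as well, whereas 22.3% of all genes did at P5 and 23.2% at P15, in either direction. The median absolute log2 fold change of the 10 genes was 0.17 at P5 and 0.165 at P15, beside 0.51 and 0.48 over all genes, and their median log2 fold changes were −0.090 and −0.043, beside 0.0078 and −0.0039. Without TMM, that is with library size alone, the median of all genes shifted by 0.202 at P5 and 0.105 at P15, and the share of all calls that were higher in primed cells went from 50.1% to 65.7% at P5 (49.9% to 58.9% at P15). At P5, *Terf2*, *Terf2ip*, *Tinf2*, *Pot1a* and *Ctc1* then had values from 0.0131 to 0.195, above 0 and not called, and 5 of the 10 genes were called, 3 lower and 2 higher. The summed endoderm and fibroblast markers, given above, also differed between the states. In primed cells the fibroblast sum was lower at each passage, whereas the median of these markers relative to MEFs was higher. The part of such cells in the differences of the 10 genes was not tested beyond taking off the fibroblast share.

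**Figure D3:**
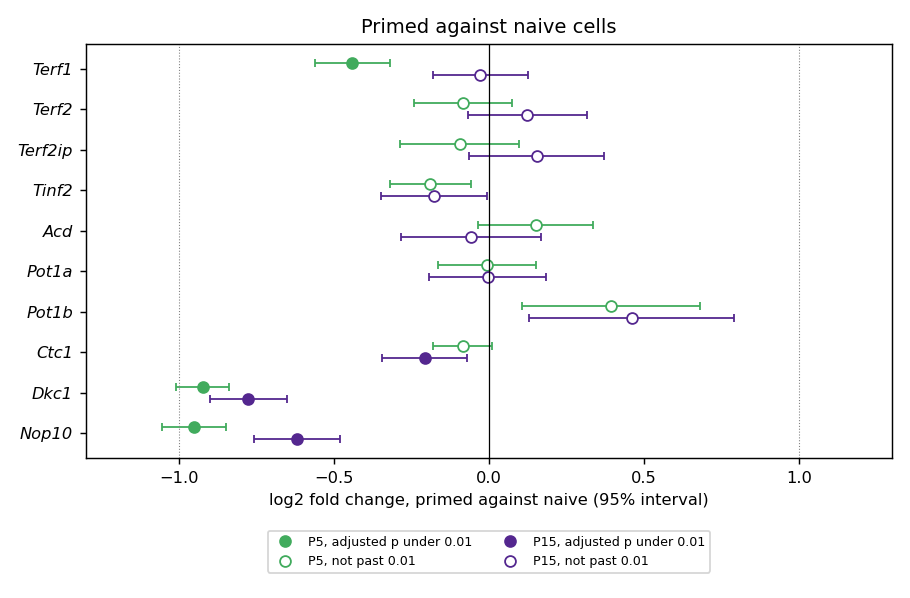
Log2 fold change of primed against naïve cells for the 10 genes at P5 (green) and P15 (purple), with 95% intervals from edgeR's fit of 4 libraries. Filled points had an adjusted p under 0.01, and dotted lines mark a fold of 2. *Dkc1* and *Nop10* lay between −0.95 and −0.62, and the other genes between −0.44 and 0.46.

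Of the double-strand binders, *Terf1* (ENSMUSG00000025925, GRCm38 chromosome 1, 15805646 to 15844052) was at 59.8 and 62.4 CPM in naïve and at 44.4 and 43.65 CPM in primed cells at P5. At P15 it was at 59.5 and 56.0 CPM in naïve and 55.7 and 58.3 CPM in primed cells, with 13.95 CPM in MEFs. The primed P5 libraries were thus the low ones, apart from all other naïve and primed libraries, and the 2 states overlapped at P15. On the log2 scale primed cells differed by −0.44 ± 0.059 (standard error) at P5 (edgeR, adjusted p = 1.09e-07) and −0.028 at P15 (95% interval −0.18 to 0.13, adjusted p = 0.759). The change of that effect between passages, tested in a fit of all 8 libraries, was 0.43 (standard error 0.093, adjusted p = 0.000519). With the median fibroblast share taken off, the P15 value was 0.177 (adjusted p = 0.0927) and the P5 value −0.403 (adjusted p = 2.29e-05).

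*Terf2* (ENSMUSG00000031921, chromosome 8, 107069400 to 107096547) was at 29.98 and 33.15 CPM in naïve and 29.0 and 29.3 CPM in primed cells at P5, and at 28.7 and 27.9 CPM against 31.1 and 31.0 CPM at P15. All 8 libraries lay within a few CPM of one another, and the MEF library had 33.85 CPM. Its log2 fold changes were −0.084 (95% interval −0.24 to 0.074, adjusted p = 0.334) at P5 and 0.12 (−0.069 to 0.32, adjusted p = 0.253) at P15. The CPM ratio of *Terf1* to *Terf2*, which is not corrected for length, was 1.99 and 1.88 in naïve P5, 1.53 and 1.49 in primed P5, 2.07 and 2.01 in naïve P15 and 1.79 and 1.88 in primed P15 libraries. It was therefore lowest in the primed P5 libraries among the pluripotent ones, and it was 0.412 in MEFs.

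The partner of TRF2, RAP1, is encoded by *Terf2ip* (ENSMUSG00000033430, chromosome 8, 112011398 to 112020528). It was at 20.7 and 19.8 CPM in naïve and 18.8 and 18.4 CPM in primed cells at P5, and at 21.1 and 20.7 CPM against 22.8 and 24.0 CPM at P15. The primed libraries lay below the naïve ones at P5 and above them at P15, and neither difference was called (log2 fold changes −0.095 and 0.15, adjusted p = 0.37 and 0.21). The difference between these effects, 0.26, had a 95% interval of −0.014 to 0.54 (adjusted p = 0.137).

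*Tinf2* (ENSMUSG00000007589, chromosome 14, 55674689 to 55681820), which holds TRF1, TRF2 and TPP1 together, was at 44.65 and 44.63 CPM in naïve and 38.4 and 38.2 CPM in primed cells at P5. At P15 it was at 45.8 and 43.4 CPM against 41.2 and 38.2 CPM. Naïve libraries lay above primed ones at either passage, but the log2 fold changes of −0.19 (95% interval −0.32 to −0.058) and −0.18 (−0.35 to −0.0054) missed the threshold, with adjusted p = 0.0101 and 0.0642. At P5 it passed with DESeq2's size factors (adjusted p = 0.00684) and with the lowest fibroblast share taken off (adjusted p = 0.0041), and with library size alone its log2 fold change was 0.0131. *Tinf2* shares 1540 bp, or 31.2% of its exon length, with *Gmpr2* on the opposite strand, and whether reads were counted by strand is not given in the sources used here, so that reads of the 2 genes cannot be told apart there.

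*Acd* (ENSMUSG00000038000, chromosome 8, 105695860 to 105701102), whose product TPP1 recruits telomerase, was at 19.6 and 21.4 CPM in naïve and 22.2 and 22.4 CPM in primed cells at P5, and at 20.1 and 23.8 CPM against 21.9 and 20.7 CPM at P15. The primed libraries lay above the naïve ones at P5, the states overlapped at P15, and MEFs were higher at 31.1 CPM. Its log2 fold changes were 0.15 (95% interval −0.035 to 0.33, adjusted p = 0.139) and −0.058 (−0.29 to 0.17, adjusted p = 0.662). With library size alone the P5 value was 0.352 and passed the threshold (adjusted p = 0.00136). *Acd* shares 33.3% of its exon length with *Carmil2* on the opposite strand, with the same limit as for *Tinf2*.

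The single-strand binders *Pot1a* (ENSMUSG00000029676, chromosome 6, 25743737 to 25809246) and *Pot1b* (ENSMUSG00000024174, chromosome 17, 55651951 to 55712628) are paralogs whose coding sequences were identical at 78.8% of 1917 aligned bases. Their transcripts shared no stretch of 100 bases, so that such a stretch could be assigned to 1 of them. *Pot1a* was at 33.5 and 31.4 CPM in naïve and 33.3 and 29.6 CPM in primed cells at P5, and at 31.2 and 30.6 CPM against 31.0 and 31.1 CPM at P15. The 8 pluripotent libraries lay within a few CPM of one another, with 95% intervals of the log2 fold change of −0.17 to 0.15 at P5 and −0.19 to 0.18 at P15 (adjusted p = 0.936 and 0.971), and MEFs had 8.85 CPM.

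*Pot1b* was at 7.16 and 8.66 CPM in naïve and 10.5 and 9.82 CPM in primed cells at P5, and at 7.59 and 8.95 CPM against 10.04 and 12.95 CPM at P15, with 7.02 CPM in MEFs. It was the only one of the 10 whose primed libraries lay above the naïve ones at both passages. In either direction, the states did not overlap for 9 of the 10 genes at P5 and 7 at P15. The share over all genes was not counted, so that these counts have no background here. The log2 fold changes of *Pot1b* were 0.39 (95% interval 0.11 to 0.68) and 0.46 (0.13 to 0.79). These values missed the threshold, with adjusted p = 0.014 and 0.0133, on 103 to 228 counts per library. They passed it with library size alone (0.595 and 0.565, adjusted p = 0.000623 and 0.00406), without naïve P5 replicate 2 (0.513, adjusted p = 0.00593), without primed P15 replicate 1 (0.658, adjusted p = 0.00291) and, at P15, without a low-count filter (adjusted p = 0.00909). Under DESeq2's Wald test they did not (adjusted p = 0.11 and 0.0932), and the lowest values were 0.236 without naïve P5 replicate 1 and 0.294 without primed P15 replicate 2. The CPM ratio of *Pot1a* to *Pot1b*, not corrected for length, was 4.67 and 3.62 in naïve P5, 3.18 and 3.02 in primed P5, 4.12 and 3.41 in naïve P15 and 3.09 and 2.40 in primed P15 libraries. Naïve libraries were above primed ones at each passage in this ratio, which was not tested.

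Summed over the 7 shelterin genes, the level was 215.4 and 221.5 CPM in naïve and 196.5 and 191.4 CPM in primed cells at P5, and 214.1 and 211.2 CPM against 213.8 and 216.3 CPM at P15, with 137.7 CPM in MEFs. After TMM scaling the primed P5 libraries were the low ones. The TMM factors, by which levels are divided, were 1.132 and 1.133 there and 0.9583 and 0.9667 in naïve P5 libraries. They were 0.9443 and 0.9505 in naïve P15 and 1.009 and 1.014 in primed P15 libraries. The sum was not tested and was not taken with library size alone. *Terf1* made up 27.7% and 28.2% of the sum in naïve P5, 22.6% and 22.8% in primed P5, 27.8% and 26.5% in naïve P15 and 26.1% and 27% in primed P15 libraries.

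*Ctc1* (ENSMUSG00000020898, chromosome 11, 69015911 to 69036473), the CST member, was at 125.7 and 129.9 CPM in naïve and 123.1 and 112.4 CPM in primed cells at P5. At P15 it was at 104.1 and 106.2 CPM against 96.3 and 87.3 CPM, and MEFs had 43.5 CPM. Every primed library lay below the naïve ones of its passage, and every P15 library below the P5 libraries of either state. Primed cells differed on the log2 scale by −0.085 at P5 (95% interval −0.18 to 0.0091, adjusted p = 0.0995) and −0.21 at P15 (standard error 0.068, adjusted p = 0.00757). The P15 call was lost under 8 of 13 alternatives, among them DESeq2's Wald test (adjusted p = 0.0273), a replicate block (adjusted p = 0.027), library size alone (−0.102, adjusted p = 0.187) and the median fibroblast share taken off (−0.0671, adjusted p = 0.497). It was also lost without naïve P15 replicate 2 (−0.219, adjusted p = 0.0207) or primed P15 replicate 2 (−0.109, adjusted p = 0.237).

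In the H/ACA particle, *Dkc1* (ENSMUSG00000031403, chromosome X, 75095854 to 75109777), the pseudouridine synthase, was at 198.2 and 194.2 CPM in naïve and 103.6 and 98.6 CPM in primed cells at P5. At P15 it was at 236.1 and 222.9 CPM against 136.2 and 133.8 CPM, with 34.9 CPM in MEFs. Naïve and primed libraries did not overlap at either passage. The primed level differed on the log2 scale by −0.92 (standard error 0.042, adjusted p = 6.03e-18) at P5 and −0.78 (standard error 0.061, adjusted p = 9.12e-14) at P15. Over the 13 alternatives it stayed between −0.973 and −0.721 at P5 and between −0.844 and −0.598 at P15, called in each.

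*Nop10* (ENSMUSG00000027133, chromosome 2, 112261926 to 112263269), a small scaffold protein of the particle, was at 109.3 and 104.5 CPM in naïve and 53.4 and 54.9 CPM in primed cells at P5. At P15 it was at 132.7 and 119.0 CPM against 80.85 and 84.2 CPM, with 38.5 CPM in MEFs. Here too the naïve libraries lay above all primed ones. On the log2 scale the difference was −0.95 (standard error 0.050, adjusted p = 2.34e-16) at P5 and −0.62 (standard error 0.068, adjusted p = 5.78e-10) at P15, within −1.01 to −0.748 and −0.722 to −0.501 over the alternatives, and called in each. The CPM ratio of *Nop10* to *Dkc1*, not corrected for length, lay between 0.516 and 0.629 in all 8 pluripotent libraries and was 1.10 in MEFs. Among the pluripotent libraries it was highest in the primed P15 ones, at 0.594 and 0.629.

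Because *Dkc1* and *Nop10* were both lower in primed cells at each passage, the sequences before their start sites are shown. They are from RefSeq (GRCm38.p6, plus strand, 5′ to 3′, 250 bases before to 30 after the start). The spans are chrX:75095604-75095883 for Dkc1 and chr2:112261676-112261955 for Nop10. Capitals mark matches of 4 motifs searched on both strands, the E-box CACGTG, the CCAAT box CCAAT, the GC box GGGCGG and the ETS core CCGGAA, none of which overlapped another here.
Dkc1: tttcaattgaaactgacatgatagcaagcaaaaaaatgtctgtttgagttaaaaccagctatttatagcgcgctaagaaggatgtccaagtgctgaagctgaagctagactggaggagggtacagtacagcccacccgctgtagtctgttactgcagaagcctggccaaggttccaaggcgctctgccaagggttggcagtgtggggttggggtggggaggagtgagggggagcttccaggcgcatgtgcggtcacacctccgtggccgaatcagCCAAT
Nop10: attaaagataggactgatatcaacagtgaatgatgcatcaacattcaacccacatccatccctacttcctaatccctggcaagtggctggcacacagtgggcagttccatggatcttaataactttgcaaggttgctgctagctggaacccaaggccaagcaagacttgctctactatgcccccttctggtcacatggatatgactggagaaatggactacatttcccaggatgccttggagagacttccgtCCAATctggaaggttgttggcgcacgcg
Each held 1 match, a CCAAT box whose first base was base 26 in *Dkc1* and base 3 in *Nop10*, with the start as base 1. Among all 32851 windows of 300 bases in the promoter table, 37.4% held that motif, 35.7% the GC box, 14.9% the ETS core and 7.15% the E-box. A window was listed for 9 of the 10 genes, all but *Terf1*. The CCAAT box was in 5 of the 9 (*Acd*, *Dkc1*, *Nop10*, *Pot1b* and *Terf2*), the GC box in 5 (*Ctc1*, *Pot1a*, *Pot1b*, *Terf2* and *Terf2ip*), the ETS core in 5 (*Acd*, *Pot1a*, *Pot1b*, *Terf2ip* and *Tinf2*) and the E-box in 1 (*Ctc1*). These matches are a description of the letters in the windows.

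Passage was then compared within each state, with libraries that also served in the comparison of states. In primed cells *Dkc1*, *Nop10*, *Terf1* and *Terf2ip* rose from P5 to P15 by 1.31-, 1.49-, 1.27- and 1.23-fold and *Ctc1* was 1.31-fold lower. In naïve cells *Dkc1* rose 1.17-fold and *Ctc1* was 1.21-fold lower. In edgeR's fits, 4 of the 10 genes were called higher and 1 lower in primed cells, where 24.3% and 22.8% of 15957 genes were called higher and lower. In naïve cells 1 was higher and 1 lower, against 4.21% and 5.01% of 15683 genes. None of these changes reached a fold of 2. With library size alone, the share of all calls that were higher at P15 went from 51.5% to 34.3% in primed cells and from 45.6% to 37.25% in naïve cells, and the median of all genes moved by −0.131 in primed cells.

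**Figure D4:**
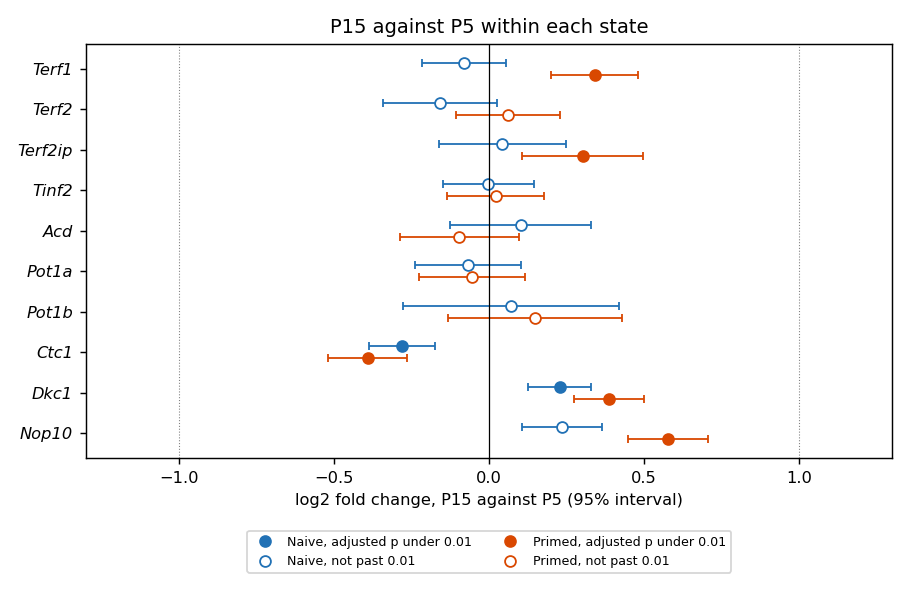
Log2 fold change of P15 against P5 in naïve (blue) and primed (orange) cells for the 10 genes, with 95% intervals from edgeR's fit of 4 libraries. Filled points had an adjusted p under 0.01, and dotted lines mark a fold of 2. *Ctc1* was lower at P15 in either state, at −0.28 and −0.39, and *Nop10* in primed cells had the highest value, 0.58.

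In primed cells the log2 fold change from P5 to P15 was 0.39 for *Dkc1* (standard error 0.055, adjusted p = 1.18e-06) and 0.58 for *Nop10* (standard error 0.062, adjusted p = 1.04e-08). Both stayed below their naïve levels at P15, with no overlap of libraries. *Terf1* rose by 0.34 (standard error 0.068, adjusted p = 0.000117) to a level that overlapped the naïve P15 libraries, and with library size alone its value was 0.21 (adjusted p = 0.0107). *Terf2ip* rose by 0.30 (standard error 0.095, adjusted p = 0.00809), a call lost under 7 of 12 alternatives, with adjusted p = 0.0782 by DESeq2's Wald test, 0.0623 without primed P5 replicate 1, 0.091 without primed P5 replicate 2 and 0.0309 without primed P15 replicate 2. *Ctc1* was lower by −0.39 (standard error 0.062, adjusted p = 4.78e-06). With the median fibroblast share taken off, *Ctc1* was at −0.226 (adjusted p = 0.0338), *Terf1* at 0.606 and *Dkc1* at 0.649. The summed fibroblast markers, given above, were also higher at P15 than at P5 in each state. Single markers could differ from the sum, as *Dcn*, *Lum*, *Pdgfra* and *Twist2* were lower at P15 in naïve cells.

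In naïve cells *Ctc1* was at −0.28 (standard error 0.049, adjusted p = 0.00161) and *Dkc1* at 0.23 (standard error 0.046, adjusted p = 0.00454). *Nop10* had the same size of difference, 0.23, and was not called (95% interval 0.11 to 0.36, adjusted p = 0.0156). The *Dkc1* call was lost without a low-count filter (adjusted p = 0.0323) and without naïve P5 replicate 1 (0.0136), naïve P5 replicate 2 (0.0395) or naïve P15 replicate 1 (0.0146). The *Ctc1* call was lost without the filter (0.013), without naïve P5 replicate 2 (0.011) and with the median fibroblast share taken off (−0.211, adjusted p = 0.0238). *Nop10* was called under 4 of 12 alternatives, namely without naïve P15 replicate 2 (0.32, adjusted p = 0.00132), with a replicate block (adjusted p = 6e-05), in the fit of all 8 libraries (adjusted p = 0.0048) and with the median fibroblast share taken off (0.333, adjusted p = 0.00865). The other 7 genes lay between −0.16 (*Terf2*) and 0.10 (*Acd*), none called.

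The test of the difference itself asked whether the effect of state changed from P5 to P15. Of the 10 genes, 2 were called, *Terf1* (0.43, given above) and *Nop10* (0.35, standard error 0.085, adjusted p = 0.00165), both with a smaller primed deficit at P15. Over 16926 genes 13.3% were called with a higher and 10.8% with a lower value at P15, and 0 of the 10 were lower, also at an unadjusted p under 0.05 and by DESeq2's Wald test. For *Dkc1* the value was 0.16 (95% interval 0.020 to 0.31, adjusted p = 0.0719), and for *Ctc1* −0.10 (−0.27 to 0.063, adjusted p = 0.349). The *Dkc1* value ran from 0.0511 with library size alone to 0.325 with the median fibroblast share taken off, where it was called (adjusted p = 0.00549). The *Nop10* call was lost with library size alone (0.236, adjusted p = 0.031) and without naïve P5 replicate 1 (adjusted p = 0.0143), primed P5 replicate 1 (0.0294), primed P5 replicate 2 (0.0138) or naïve P15 replicate 2 (0.0158). *Terf1* passed in all 16 alternatives, with an adjusted p of at most 0.00937.

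The other genes of telomere maintenance were described by a list of 27, of which all 27 passed the filter. At P5, 6 were higher and 15 lower in primed cells, and at P15, 4 were higher and 11 lower, with the percentages over all genes given above for each direction. Their median log2 fold change was −0.27 at P5 and −0.12 at P15. The 4 subunits of polymerase alpha-primase, which fills in the strand with CST, were lower in primed cells at each passage, at −1.37 to −0.52 at P5 and −1.20 to −0.31 at P15. A list of 11 genes was labelled as H/ACA particle and telomerase assembly, and it also held *Tep1*, *Pinx1* and *Pif1*. Of the 11, 8 were lower and 0 higher at P5, and 5 lower and 0 higher at P15. *Pif1* was among the lower at each passage, at −0.44 and −0.82, and *Tep1* and *Pinx1* were not called at either. Of the 2 other CST subunits, 1 was higher at P5 and 2 at P15. Of 10 shelterin partners and processing factors, 5 were higher and 3 lower at P5, and 2 higher and 2 lower at P15.

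**Figure D5:**
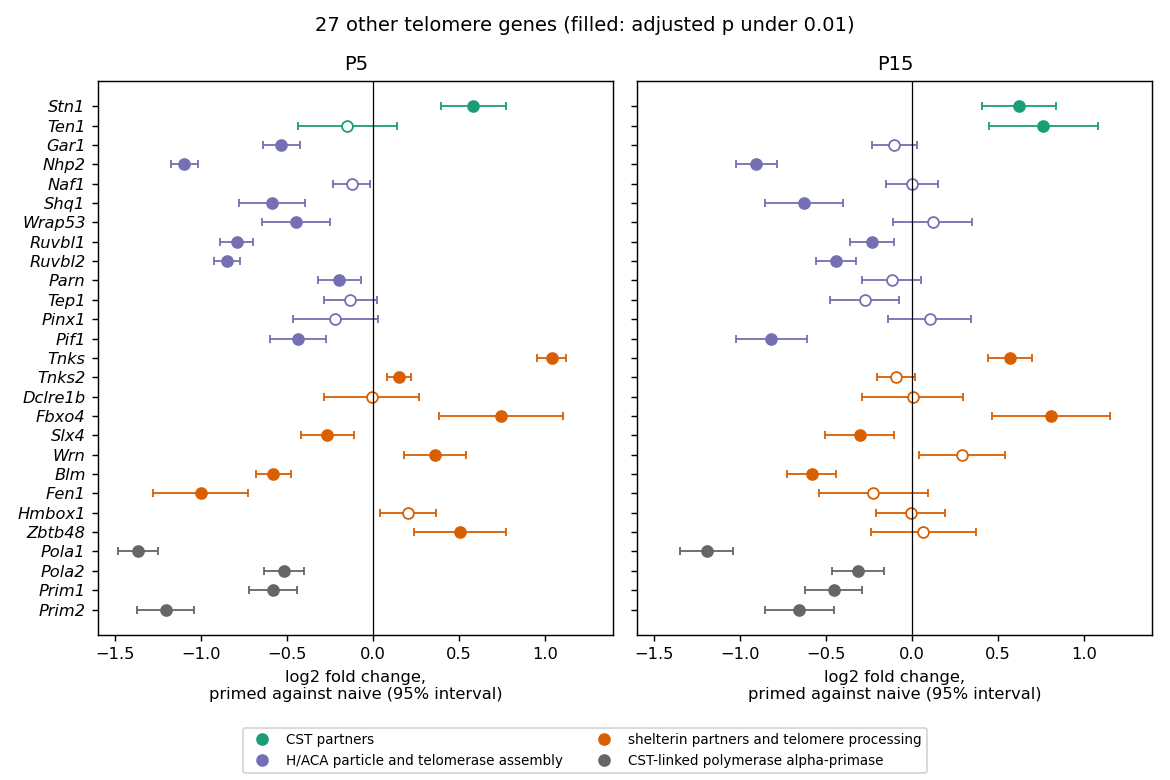
Log2 fold change of primed against naïve cells at P5 (left) and P15 (right) for 27 other telomere genes, coloured by role, with 95% intervals from edgeR's fit. Filled points had an adjusted p under 0.01. The 4 polymerase alpha-primase genes lay between −1.37 and −0.31, and *Tnks* was at 1.04 at P5 and 0.57 at P15.

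The 3 with the smallest adjusted p were the same at each passage, *Nhp2*, *Tnks* and *Pola1*. *Nhp2*, another protein of the H/ACA particle, was at 281.6 and 288.4 CPM in naïve and 130.1 and 130.2 CPM in primed cells at P5, and at 336.2 and 314.8 CPM against 177.0 and 172.6 CPM at P15. As for *Dkc1* and *Nop10*, the naïve libraries were above all primed ones. On the log2 scale primed cells differed by −1.10 and −0.91, with adjusted p = 8.49e-21 and 4.93e-16. *Gar1*, also of the particle, was lower in primed cells at P5 (−0.53, edgeR's adjusted p = 4.16e-10). At P15 its value was −0.10 and was not called (adjusted p = 0.163). *Tnks*, which encodes tankyrase, was at 122.1 and 130.8 CPM in naïve and 250.8 and 257.7 CPM in primed cells at P5. At P15 it was at 115.0 and 114.7 CPM against 167.8 and 175.9 CPM. It was thus higher in primed cells at each passage, by 1.04 (adjusted p = 1.58e-19) and 0.57 (adjusted p = 4.64e-10) on the log2 scale, and MEFs had 130.1 CPM. *Pola1*, the catalytic subunit of polymerase alpha, was lower in primed cells, at 33.25 and 32.1 CPM against 88.4 and 84.2 CPM at P5 and 35.1 and 35.4 CPM against 80.5 and 79.7 CPM at P15, with adjusted p = 1.13e-18 and 2.45e-16.

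Genes with a like profile were sought for *Dkc1*, the gene of the 10 with the largest mean change among those called at both passages. Profiles were the group means of log2(CPM + 1) in the 4 groups and MEFs, centred on their mean, and were compared by Euclidean distance with 10000 genes of at least 10 CPM. The nearest was *Nhp2*, at a distance of 0.161, followed by *Lck* at 0.177 and *Gca* at 0.224, where the median over all genes was 2.19. The mean CPM of *Lck* was 14.5 in naïve P5, 6.99 in primed P5, 16.1 in naïve P15, 10.9 in primed P15 and 1.79 in MEF libraries, and that of *Gca* was 18.4, 8.63, 18.3, 10.1 and 2.25 CPM in the same order. These distances describe 5 group means and carry no test.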

How the data were processed

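RNA-seq was analysed in 9 libraries, 2 for each of the 4 groups of state and passage and 1 of MEFs, grouped by the deposited sample titles. The authors prepared poly(A) RNA with an NEBNext Ultra kit, trimmed reads with Cutadapt, aligned them to mm10 with HISAT2 (k of 20) and made the deposited raw counts per Ensembl gene with featureCounts. The annotation release, strand setting and treatment of multi-mapping reads are not given in the sources used here. GENCODE M21 named 54079 of 54232 genes, and the 153 unnamed ones held 0.0116% to 0.0165% of a library's counts. The 92 spike-in entries, all at 0, were dropped.

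Counts were tested in R 4.3.3 by edgeR 4.0.16 (limma 3.58.1) with the quasi-likelihood test after TMM scaling, keeping genes with a minimum of 10 counts in 2 or more fitted libraries, with Benjamini-Hochberg adjustment and a threshold of 0.01. State was compared within passage and passage within state in fits of 4 libraries, and their interaction in a fit of 8. The MEF library entered no fit. The biological coefficient of variation was 3.26% to 4.79%. With at least 14378051 counts, 3 counts came to at most 0.209 CPM, for counting error only. Replicates differed by more than counting noise (chi-square per gene 2.10 to 3.28).

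All 10 genes were named by symbol. Of the 27 other telomere genes, the 3 with the smallest adjusted p at each passage were described by library, and for likeness the 3 nearest to *Dkc1* were named. Members, lists and tests were chosen with earlier results of these data known. Further genes of the telomerase complex were not analysed here. Alternatives were DESeq2 1.42.0 (size factors, Wald test), library size alone, no filter, a fit of 8 libraries, a replicate block, the fibroblast share of MEF counts taken off, and each replicate left out. A crossed block was added after seeing the data. The code was tested on simulated counts.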

Additional observations from a re-analysis of the deposited data

Results flagged for a closer look

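Of the telomere genes whose levels are given by library above, 3 had an effect of state that differed between P15 and P5. The difference itself was tested by edgeR's quasi-likelihood test over the 8 naïve and primed libraries. Over all 16926 genes in that test, 13.3% were called with a higher and 10.8% with a lower value at P15, so that such calls were common. *Tnks* was described by library because of its small adjusted p for state in these same libraries, so its call is not independent of that choice. *Terf1* was at −0.44 at P5 and −0.028 at P15, a difference of 0.429 on the log2 scale (adjusted p = 0.000519). *Nop10* was at −0.95 at P5 and −0.62 at P15, a difference of 0.35 (adjusted p = 0.00165). *Tnks* was at 1.04 at P5 and 0.57 at P15, a difference of −0.453 (adjusted p = 8.07e-06). With 2 libraries per group, single libraries could not be tested for standing apart from their group.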

How the results depend on the processing

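*Dkc1* and *Nop10* stayed called and lower in primed cells at both passages, and *Terf1* at P5, under all 13 alternatives. The number of the 10 genes called moved by over 1.5 times in these cases: 5 in place of 3 at P5 with library size alone and with the crossed block; 0 in place of 2 for naïve passage without the filter (0 to 3 with a replicate left out); 3 in place of 5 for primed passage with library size alone and with the median fibroblast share taken off; and 1 in place of 2 for the difference between passages with library size alone (1 to 2 with a replicate left out). The cause was not tested. Same-numbered libraries did not deviate together in naïve and primed cells (correlations −0.127 at P5 and −0.19 at P15). Across both state and passage the values were −0.0993 for naïve P5 with primed P15 and −0.18 for primed P5 with naïve P15. Between the passages of 1 state they were positive, 0.161 in naïve and 0.159 in primed cells. Whether libraries of different groups share a source was not tested. The replicate block left 3 genes called at P5, 2 in place of 3 at P15, 3 in place of 2 for naïve passage, 5 for primed passage and 2 for the difference. The crossed pairing called 5 genes at P5 and 4 at P15. Of the 738 values of single genes under an alternative, 644 kept their sign and side of the threshold, 29 lost and 16 gained a call, and 49 changed sign, none of them called either way.

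Signs changed at P5 with library size alone for *Terf2* (0.118), *Terf2ip* (0.107), *Tinf2* (0.0131), *Pot1a* (0.195) and *Ctc1* (0.117), and for *Pot1a* with the median share taken off (0.0426). With a replicate left out, P5 ranges were −0.0776 to 0.101 for *Pot1a* and −0.136 to 0.00544 for *Ctc1*. At P15 the values were 0.0772, 0.0464 and 0.101 for *Terf1*, *Acd* and *Pot1a* with library size alone, 0.00283 for *Pot1a* without the filter, 0.177 and 0.195 for *Terf1* and *Pot1a* with the median share and 0.0245 and 0.0476 with the lowest share taken off. With a replicate left out they ranged from −0.192 to 0.0448 for *Acd*, −0.1 to 0.0298 for *Terf1* and −0.0473 to 0.0237 for *Pot1a*. For naïve passage, *Tinf2* was at 0.00132 by DESeq2's Wald test, *Terf1*, *Tinf2* and *Pot1a* at 0.0144, 0.0811 and 0.0217 with the median share and *Tinf2* at 0.00687 with the lowest share taken off, and with a replicate left out *Pot1b* ranged from −0.066 to 0.207, *Tinf2* from −0.0452 to 0.0458 and *Acd* from −0.0218 to 0.209. For primed passage, *Terf2* and *Tinf2* were at −0.0701 and −0.11 with library size alone and *Pot1a* at 0.185 and 0.045 with the median and lowest share taken off, and with a replicate left out *Pot1a* ranged from −0.157 to 0.0133, *Tinf2* from −0.0321 to 0.0803 and *Pot1b* from −0.0425 to 0.32. For the difference between passages, *Tinf2*, *Pot1a* and *Pot1b* were at −0.0844, −0.0935 and −0.0307 with library size alone, and ranged with a replicate left out from −0.0218 to 0.0906, −0.0849 to 0.084 and −0.104 to 0.258.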
